A study of Homo sapiens with 4 samples.

Results

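Desmosomes are the cell-cell junctions that hold the layers of a squamous epithelium together, and 10 genes for their components were followed in RNA bound to the RNA-binding protein TIA1 and in total RNA of KYSE180 cells. KYSE180 is an established line of esophageal squamous cell carcinoma (ESCC). The members were taken by name: 5 genes of the cytoplasmic plaque (DSP, JUP, PKP1, PKP2 and PKP3), 4 desmosomal cadherins (DSG2, DSG3, DSC2 and DSC3) and PERP, a membrane protein of the desmosome. All 10 were on the array, through 13 of its 50599 probes, and all 10 were among the 13038 genes kept after a filter on dim probes. The study asked which transcripts TIA1 binds in these cells. RNA recovered from cytoplasmic lysate with an anti-TIA1 antibody (TIA1 RIP, 2 arrays) was compared with the input RNA (total RNA, 2 arrays), each on a one-colour Agilent array. Both groups came from the same line without any stated treatment or genotype change, so the results describe 1 cell line, and no immunoprecipitate with a control antibody was analysed here. Nothing stated that the 2 arrays of a group came from separate cultures, so errors and p-values measure only the spread between these arrays, which may be technical.

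In a desmosome, desmogleins and desmocollins bridge the gap between neighbouring cells, plakoglobin and plakophilins bind their tails, and desmoplakin ties the plaque to keratin filaments. Desmosomes are abundant in esophageal epithelium, where they resist mechanical strain. TIA1 is known to bind U-rich RNA, often in 3′ UTRs, and to act on the translation and stability of the transcripts it binds.

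For each member the most U-rich stretch of 30 bases in its 3′ UTR is shown, since U-rich RNA is what TIA1 is known to bind. The sequences are the transcript strand of GRCh37, written 5′ to 3′, and the capitals mark U. No binding was measured at these stretches. The plaque genes come first, from chr6:7586377-7586406 (plus strand, DSP), chr17:39910898-39910927 (minus strand, JUP), chr1:201299321-201299350 (plus strand, PKP1), chr12:32944815-32944844 (minus strand, PKP2) and chr11:404837-404866 (plus strand, PKP3).
DSP: UUUgUUUcUUcUcUUcUgUgUUUcgaUUUU
JUP: cUUUaUgUUUUUggUUaUUggUUUUUUUgU
PKP1: UggaaagaUUUUUagaUUUUUUUUUUccUU
PKP2: UUUcUUUcUUUacUUUgUgcUUgUUUUUaU
PKP3: UgggggUUggcUgUggccUggcagUaUcUU

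The cadherin stretches come from chromosome 18, at chr18:29128020-29128049 (plus strand, DSG2), chr18:29057827-29057856 (plus strand, DSG3), chr18:28647218-28647247 (minus strand, DSC2) and chr18:28573870-28573899 (minus strand, DSC3). PERP follows, from chr6:138411798-138411827 (minus strand).
DSG2: UUcUUUgaaaUUaUUaUUUUaUUUUgaUUU
DSG3: agagUUUUaUaUUUUccUUUcUUcgUUUUU
DSC2: UgUUUcUcUcUccagUUUUUUUUUUUUUUU
DSC3: UcUgcUcUUUUUUUUUUUUacggaUaUUUU
PERP: gUUUUUgUUUgUUUUUUUgUUUgaagUUUU

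In 9 of the 10 members these stretches held between 18 and 22 U, and PKP3 was the exception with 10 U. Over 11411 genes with a 3′ UTR long enough to hold one, the median was 18. Of these genes 3.58% had fewer than 10 U, 43.4% fewer than 18 and 80.1% fewer than 22. A longer 3′ UTR offers more stretches to choose from. The median length of the 3′ UTR was 2353.5 bases in the members and 991 over all genes.

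The arrays differed in brightness before any gene was compared. All 4 lay on 1 slide and were scanned together. The 75th percentile of processed signal stood at 1514 for TIA1 RIP array 1, 1271 for TIA1 RIP array 2, 714 for total RNA array 1 and 69.9 for total RNA array 2. Between 45.8% and 48.4% of spots were well above background on the first 3 of these arrays, and 32.2% on total RNA array 2. Across the genes kept, the TIA1 RIP arrays correlated with each other at r = 0.932 and the total RNA arrays at r = 0.733, while TIA1 RIP array 1 correlated with total RNA array 1 at r = 0.936. All 6 squamous epithelium markers and all 3 simple epithelium markers checked were above background on every array. Of the 4 fibroblast markers none was above background on all 4 arrays, and the leukocyte markers CD68 and PTPRC and the endothelial marker VWF were above it on all 4. Because total RNA array 2 stood apart, the main comparisons are given against each total RNA array as well as against their mean. Values below are log2 signals minus the 75th percentile of the same array, and the number of arrays limits their precision. In this bulk RNA, fewer cells with a transcript and fewer copies per cell cannot be told apart.

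Among the plaque genes, none had TIA1 RIP arrays that both lay above both total RNA arrays, and PKP3 lay below on both. JUP encodes plakoglobin, the plaque protein shared with adherens junctions. Its log2 signals were 5.26 and 5.63 on TIA1 RIP arrays 1 and 2, and 4.56 and 6.85 on total RNA arrays 1 and 2. Both TIA1 RIP values fell between the total RNA values, so the mean log2 signal of TIA1 RIP was 0.88 above total RNA array 1 and stood at -1.41 relative to total RNA array 2.

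DSP encodes desmoplakin, the link to the keratin filaments. Its log2 signals were 2.09 and 3.30 in TIA1 RIP and 3.996 and 2.98 in total RNA, with the groups overlapping. Its probes gave log2 ratios of -0.64 and -0.95.

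The plakophilins strengthen the plaque laterally. PKP3 read 4.89 and 3.73 in TIA1 RIP and 5.59 and 7.12 in total RNA. It was the only member with both TIA1 RIP arrays below both total RNA arrays, as were 21.7% of all genes. The log2 ratio of group means of PKP3 was -2.04 (SE 0.92, n = 2 arrays per group). Relative to the median of genes of like transcript GC content this ratio was -1.05. With GC content removed on each array, an alternative added after the data had been seen, it was -0.89. PKP1 read 0.0048 and 0.72 in TIA1 RIP and 0.36 and 3.20 in total RNA, and its probes gave log2 ratios of -1.42 and -1.41. The TIA1 RIP mean of PKP1 differed from total RNA array 1 by 0.00067 and from total RNA array 2 by -2.84, so its lower mean rested on the second of these arrays. PKP2 read 0.16 and -1.12 in TIA1 RIP and 0.49 and -2.996 in total RNA. On total RNA array 2 the PKP2 probe was not well above background, so its mean in TIA1 RIP was at least 1.55-fold that of this array, whereas it was -0.97 on the log2 scale relative to total RNA array 1. With the detection limit in place of the undetected value, the log2 ratio of group means of PKP2 was at least -0.17, so its direction is not known.

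The 4 desmosomal cadherins had log2 ratios of group means from 0.02 to 0.87, all above the median of all genes (-0.036), and the arrays of the groups overlapped for each of them. Relative to the median of genes of like transcript GC content, the same ratios were -0.10 for DSG2, 0.02 for DSG3, -0.94 for DSC2 and -0.14 for DSC3. DSG2, the most widely expressed desmoglein, read 1.83 and 2.41 in TIA1 RIP and 1.88 and 0.62 in total RNA. DSG3, the desmoglein of basal squamous layers, read 1.31 and 3.47 in TIA1 RIP and 1.97 and 1.34 in total RNA. The TIA1 RIP arrays of DSG3 differed by 2.17, more than for any other member, and array 1 lay below both total RNA arrays while array 2 lay above both.

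DSC2, the desmocollin found in most epithelia, had the smallest range over the 4 arrays among the cadherins, at 0.21 and 0.66 in TIA1 RIP and 0.76 and 0.077 in total RNA. DSC3, a desmocollin of stratified epithelia, read 0.22 and 0.50 in TIA1 RIP and 0.86 and -1.80 in total RNA. Both DSC3 probes were below the background limit on total RNA array 2, where the TIA1 RIP means were at least 2.15-fold and at least 3.60-fold higher. With the detection limit in place of the undetected values, the log2 ratio of group means of DSC3 was at least 0.49. Against total RNA array 1, DSC2 and DSC3 stood at -0.32 and -0.50 and DSG2 and DSG3 at 0.24 and 0.42.

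PERP, a tetraspan protein needed for desmosome assembly in stratified epithelia, was the only member with both TIA1 RIP arrays above both total RNA arrays, as were 19.4% of all genes. It read 7.23 and 7.47 in TIA1 RIP and 6.92 and 6.78 in total RNA. The total RNA arrays differed by only 0.14 for this gene, and the log2 ratio of group means was 0.50 (SE 0.77). With the GC content of transcripts removed, an alternative added after the data had been seen, the log2 ratio of PERP was -0.39.

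**Figure D1:**
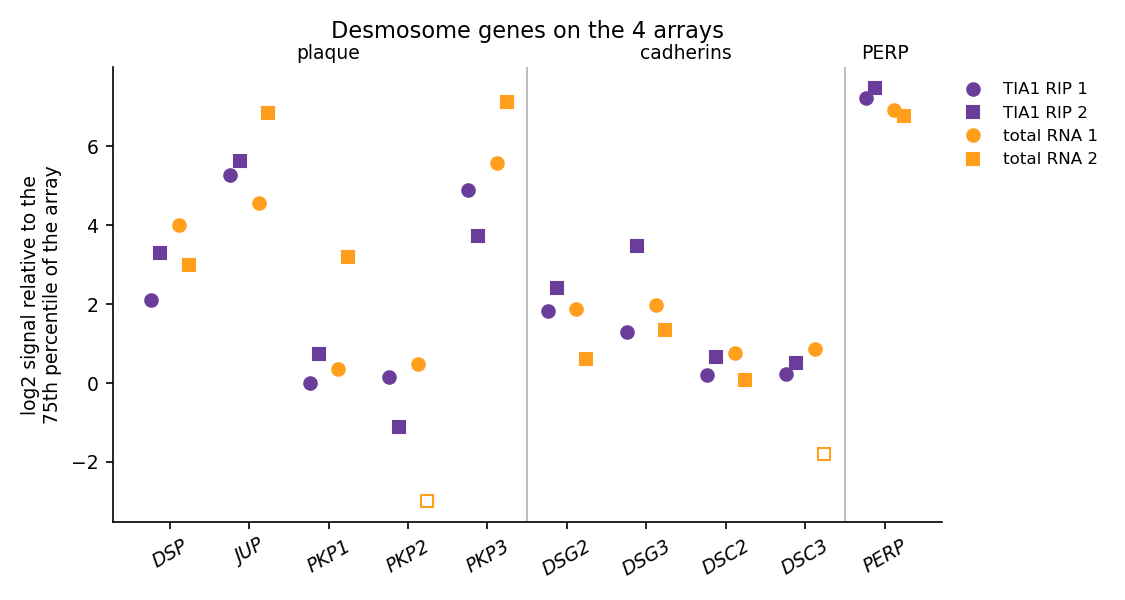
Log2 signal relative to the array's 75th percentile (vertical axis) of the 10 desmosome genes (horizontal axis) on the TIA1 RIP arrays (purple) and total RNA arrays (orange), with circles for array 1, squares for array 2 and open symbols where no probe was well above background. Each point is the mean of a gene's probes on 1 array, and only PERP (TIA1 RIP above) and PKP3 (TIA1 RIP below) have groups that do not overlap.

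No member passed the test across all genes. On the scale of the 75th percentile, limma called 0% of 13038 genes higher and 0% lower in TIA1 RIP at a Benjamini-Hochberg adjusted p under 0.05. At an unadjusted p under 0.05, limma gave 144 genes higher (1.1%) and 524 lower (4.02%), with 0 members in either direction. The lowest unadjusted p of a member in limma was 0.0612, for PKP3 (adjusted p = 0.776), and the adjusted p of the others ran from 0.778 for PKP1 to 0.997 for DSC2. These ratios are relative to the 75th percentile. Scaling to the E1A spike-ins instead moved the median of all genes from -0.036 to 3.82 and gave the 4 members DSP, JUP, PKP1 and PKP3 a positive log2 ratio in place of a negative one. A permutation of 2 against 2 arrays cannot give an exact two-sided p below 0.333. Of the standard errors of the members, the smallest was that of PERP and the largest that of PKP2 (1.25), whose total RNA arrays differed by 3.48.

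The study set enrichment against that of GAPDH mRNA, a glycolytic transcript taken as no target of TIA1, with a limit of 2.5-fold. The study required this limit in both its array and its sequencing data, and only the arrays were analysed here. GAPDH itself had a log2 ratio of -2.06, from -1.08 against total RNA array 1 to -3.04 against total RNA array 2, so the reference moved with the total RNA array. On the group means 7 of 10 members were more than 2.5-fold above GAPDH, beside 72.4% of all genes. Over the 8 members detected on all 4 arrays, 5 were past the limit, beside 64.2% of the genes detected on all 4. DSG2 was 7.61-fold, DSG3 6.95-fold, PERP 5.91-fold, DSC2 4.23-fold and JUP 3.48-fold above it. With the detection limit in place of their undetected values on total RNA array 2, DSC3 was at least 5.84-fold and PKP2 at least 3.71-fold above it. DSP (2.40-fold), PKP1 (1.56-fold) and PKP3 (1.01-fold) stayed under the limit.

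Against total RNA array 1 alone, 3 of 10 members were past the limit, beside 42.3% of all genes. These were JUP (3.90-fold), PERP (2.85-fold) and DSG3 (2.83-fold). Against total RNA array 2 alone, 8 of 10 were past it, beside 77.5% of all genes, and the exceptions were PKP1 and PKP3. In single pairings with total RNA array 1, 2 members passed with TIA1 RIP array 1 (46% of all genes) and 5 with TIA1 RIP array 2 (40%). In those with total RNA array 2, 8 passed with TIA1 RIP array 1 (76.7%) and 8 with TIA1 RIP array 2 (77.7%). JUP and PERP were past the limit in all 4 pairings of a TIA1 RIP with a total RNA array, and 26.2% of all genes were. In the limma fit relative to GAPDH, 0% of genes passed the adjusted threshold, and 2537 (19.5%) were higher at an unadjusted p under 0.05, JUP alone among the members. Its adjusted p in limma was 0.221. With the median of all genes as the reference in place of GAPDH, 0 of 10 members were past 2.5-fold, beside 12.7% of all genes.

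The median log2 ratio of the plaque genes was lower than that of the cadherins on the group means, and the size of this difference, for which no test was run, changed with the total RNA array used. The median was -0.79 over the 5 plaque genes and 0.78 over the 4 cadherins, a difference of -1.58. These medians take PKP2 and DSC3 at their undetected levels on total RNA array 2. Both genes passed the filter through the TIA1 RIP arrays alone. PKP2 lay above DSG3 and DSC2 as measured (0.77), but with the detection limit its ratio is known only to be at least -0.17. With PKP2 and DSC3 set to the detection limit on total RNA array 2, a choice made after the data were seen, the difference was -1.41. Against total RNA array 2 the difference of medians was -2.68, and against total RNA array 1 it was -0.93. Among single pairs of arrays with total RNA array 2 it was -3.19 for TIA1 RIP array 2 and -2.26 for TIA1 RIP array 1. With PKP2 and DSC3 set to the detection limit, the first of these was -2.92. With total RNA array 1 it was -0.91 for TIA1 RIP array 2 and 0.23 for TIA1 RIP array 1. With TIA1 RIP array 1 and total RNA array 1 the plaque median was thus the higher of the 2 classes. JUP lay among or above the cadherins in both pairs with total RNA array 1. In the pairs with total RNA array 2, PKP2 is known only as a lower bound on the log2 ratio. The bound was 1.27 with TIA1 RIP array 1, above DSG3 (-0.03) and DSC2 (0.13), and -0.0065 with TIA1 RIP array 2, where the other plaque genes lay below all 4 cadherins and the place of PKP2 is not known. The median log2 ratio of all 10 members was 0.26, beside -0.036 over all genes. Against total RNA array 1 it was -0.16, beside 0.072 over all genes, and against total RNA array 2 it was 0.47, beside -0.29.

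**Figure D2:**
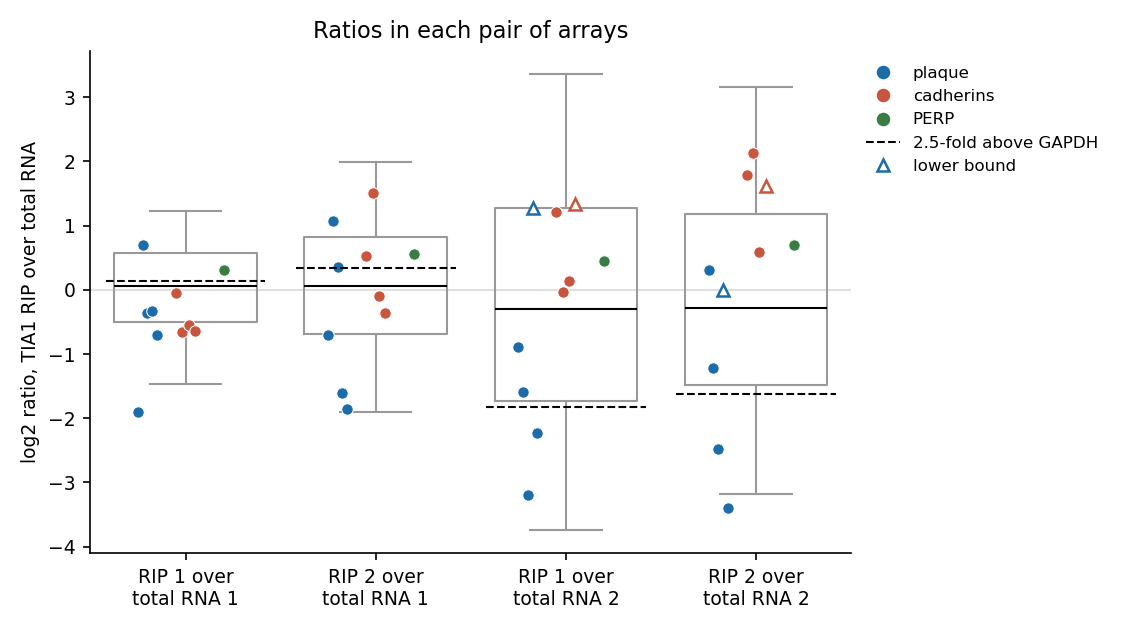
Log2 ratio of TIA1 RIP over total RNA (vertical axis) in the 4 pairings of single arrays (horizontal axis) for plaque genes (blue), cadherins (red) and PERP (green), with open triangles for lower bounds (PKP2 and DSC3, not detected on total RNA array 2). Boxes show the quartiles and median of all genes kept, whiskers their 5th and 95th percentiles, and dashed lines 2.5-fold above GAPDH, which JUP and PERP passed in all 4 pairings.

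The members also differed between the total RNA arrays themselves. PKP1, JUP and PKP3, the members with the highest GC content, were the only ones higher on array 2. The order among these genes did not follow their GC content. The log2 difference of total RNA array 2 minus array 1 was negative for all 4 cadherins (-0.63 to -2.66), PERP (-0.14), DSP (-1.01) and PKP2 (-3.48). It was positive for PKP1 (2.84), JUP (2.29) and PKP3 (1.53), and its median over all genes was 0.38. PKP2 and DSC3 were not above background on total RNA array 2, so their differences rest on undetected levels there, also in the correlation over members. GC content of the transcript was 39.0% to 42.5% in the cadherins, 40.4% in PERP and 46.5% to 66.7% in the plaque genes, with no overlap between the classes. Over the 10 members, which share both arrays, GC content and this difference correlated at r = 0.721 (rho = 0.539), and over 11715 genes at r = 0.687 (rho = 0.706). By GC decile, the median difference ran from -1.99 at the lowest GC content to 2.08 at the highest. GC content and the ratio against total RNA array 1 correlated at r = -0.142 over the members and -0.051 over all genes.

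Set against the median of genes of like GC content in the same comparison with total RNA array 1, JUP stood at 0.80, DSG3 at 0.36, PERP at 0.34 and DSG2 at 0.14. PKP1 stood at -0.07, DSC2 at -0.42, DSC3 at -0.60, PKP2 at -1.03, PKP3 at -1.29 and DSP at -1.36. With GC content removed on each array, the difference between plaque and cadherin medians on the group means was -0.81, and 4 of 10 members were past 2.5-fold above GAPDH, beside 58.6% of all genes. The part that base composition or the dimness of total RNA array 2 had in the class difference was not tested beyond these values.

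**Figure D3:**
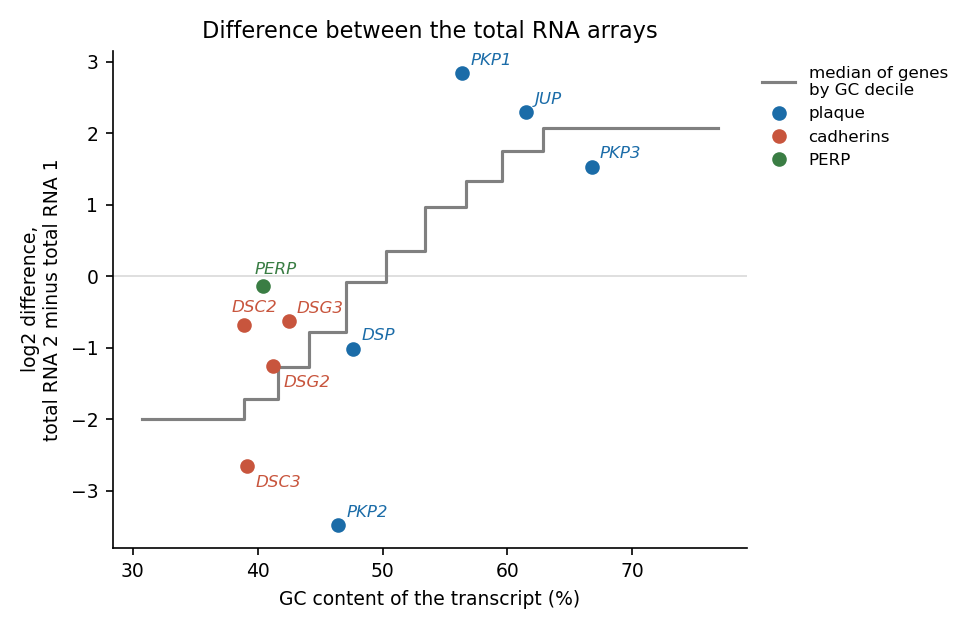
Log2 difference of total RNA array 2 minus total RNA array 1 (vertical axis) against the GC content of the transcript in percent (horizontal axis), with 1 labelled point per desmosome gene and a grey step line for the median of all genes in each decile of GC content. The cadherins and PERP lie left of the plaque genes and below 0, while PKP1, JUP and PKP3 lie above 0. PKP2 and DSC3 were not above background on total RNA array 2, and their points use the undetected levels.

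The untranslated regions of the classes overlapped in length and U content, as read from the longest coding transcript of each gene in the GENCODE annotation of GRCh37. The 4 cadherin genes lie in 1 cluster on chromosome 18 and have long 3′ UTRs, of 9175 bases in DSC2, 4810 in DSC3, 2442 in DSG3 and 2265 in DSG2, against a median of 991 over all genes. PERP has 3537 bases of 3′ UTR after a coding sequence of 579. The plaque genes ranged from 339 bases in PKP3 to 2952 in PKP1. U made up 30.3% to 33.2% of the 3′ UTR in the cadherins and 33.3% in PERP, all above the median of 29.3% over all genes. In the plaque it ran from 18.9% in PKP3 to 38.4% in DSP.

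The AU-rich pentamer AUUUA was found, on the transcript strand alone, in the 3′ UTR of 7 of 10 members and in 66.9% of 11539 3′ UTRs. DSC2 held 23 copies, DSC3 13, PKP2 and PERP 8 each, DSG2 7, DSG3 5 and DSP 3, while JUP, PKP1 and PKP3 held none. Counted with overlaps, UUUUU, which can share bases with AUUUA, was found in 9 of 10 members, PKP3 being the exception, and in 75.4% of 3′ UTRs. JUP and PERP, which were past 2.5-fold above GAPDH in every pairing, differed in these features, with 1135 and 3537 bases of 3′ UTR, 25.1% and 33.3% U, and 6 and 33 copies of UUUUU. These counts grow with length and are no measure of binding.

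Other genes of epithelial junctions gave no calls either. Of 31 such genes listed, 26 were kept, and 0 of 26 passed the adjusted threshold in limma, beside 0% of all genes. At an unadjusted p under 0.05 in limma, 0 of 26 passed, beside 1.1% of all genes higher and 4.02% lower. Among the other desmosome and cornified envelope genes, 4 of 7 were kept. The log2 ratio was -0.85 for EVPL (envoplakin) and -1.53 for PPL (periplakin). For PKP4 it was 0.13 as the mean of its probes, some of which were not above background on total RNA array 2. The PKP4 probe above background on all 4 arrays read -0.16 and -0.88 in TIA1 RIP and 0.53 and 1.08 in total RNA. CDSN (corneodesmosin) was above background on the TIA1 RIP arrays alone. Its mean log2 signal there, -2.36, did not exceed the mean detection limit of the total RNA arrays, -2.35, so no fold is given. DSG4 and DSC1 were above background on no array, and DSG1, the desmoglein of upper epidermal layers, on total RNA array 1 alone.

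Of the adherens junction genes 9 of 10 were kept, with a median log2 ratio of -0.36, from 1.03 for VCL (vinculin) to -1.40 for NECTIN1. Of the tight junction genes 8 of 9 were kept, with a median of 0.18 and the highest value, 0.61, for OCLN (occludin). All 5 gap junction genes were kept, with a median of 1.04, from 1.47 for GJB6 to -0.85 for GJB5, both connexins. Against total RNA array 1 these medians were 0.31, 0.52 and 0.05, beside -0.16 for the 10 desmosome genes. Against total RNA array 2 they were -0.69, -0.16 and 1.65, beside 0.47 for the desmosome genes.

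The genes whose pattern over the 4 arrays lay nearest to the mean pattern of the members, each centred on its own mean, were PMS2, FHIP1A, RABGAP1, STN1 and CCDC125, at Euclidean distances of 0.070 to 0.137 among 9249 genes detected on all arrays. Their log2 ratios lay between -0.19 and -0.05.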

How the data were processed

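RNA (0.2 µg per array, per the labels) was labelled with Cy3 and hybridized to 4 one-colour arrays. The authors read the scans with Feature Extraction (Agilent, 10.7.1.1). In the deposited files each spot has an intensity on a linear scale, background-subtracted as the processed signal, and the raw median intensities of spot and background. The other deposited columns used are the scanner software's 0 or 1 flags (non-uniform, outlier among its population, saturation, well above background). Nothing was normalized between arrays, and the authors then used GeneSpring, scaled the immunoprecipitated mRNA by constitutive mRNA levels and set the enrichment against GAPDH. The scaling between arrays, the detection filter and any test are not given in the sources used here.

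Flagged spots (299 to 382 of 58717 per array) were left out, no spot was saturated, and the 75th percentile of log2 processed signal was subtracted on each array. Replicate spots were averaged by probe, and 20106 probes were kept, those with a share of 0.5 or more of their spots flagged as well above background on each array of either group. Symbols were found for 34510 of 50599 probes through RefSeq accessions (names only, from a later assembly) and GENCODE transcripts, and the kept probes of a gene were averaged into 13038 genes. All 13 member probes passed, 10 of them on all 4 arrays. The PKP2 probe and both DSC3 probes passed through the TIA1 RIP arrays alone, since they were not well above background on total RNA array 2. The functions lmFit and eBayes of limma 3.58.1 (R 4.3.3) compared TIA1 RIP with total RNA over all genes, after a check on simulated data, with Benjamini-Hochberg adjustment. The fit relative to GAPDH used values minus the GAPDH value of the same array. A value not above background on an array was set to the lowest signal above background there, unless its own was higher, to give a bound on the fold.

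Transcript features come from the GENCODE annotation and genome of GRCh37 for 11715 genes. The members, lists and rule for named genes (every member, GAPDH, ACTB, extremes of each junction list, all other desmosome genes, the 5 nearest patterns) were chosen with earlier results of these data known. A single gene that the rule names is not reported here. ACTB had a log2 ratio of -1.83. Alternatives covered background correction, scaling, filter, probe choice, reference gene, fold, replicate block and each array left out. Removal of GC content by loess was added after the data were seen. Plots were made in Python 3.11.15 (matplotlib 3.10.9).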

Additional observations from a re-analysis of the deposited data

How the results depend on the processing

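Of 138 values of a member's log2 ratio under an alternative, 111 kept their direction and side of the threshold, as did 129 of 148 values relative to GAPDH. Part of these counts was fixed in advance. Relative to GAPDH, scaling to the median of all spots or to the E1A spike-ins cancels out. The replicate block alone and the lack of a filter left each member's log2 ratio unchanged and could alter only its p-value. The counts thus overstate how far the values were tested. The direction on the 75th percentile scale was reversed for JUP by normexp background (0.23), quantile normalization (0.44) and the median of all spots (0.049), and by normexp for PKP2 (-0.27) and DSC2 (-0.0019). Scaling to the E1A spike-ins, which moved the median of all genes from -0.036 to 3.82, gave DSP 3.07, JUP 3.60, PKP1 2.44 and PKP3 1.82. Quantile normalization moved that median to 0.13 and the median of all spots to 0.27. GC content removed, with or without the replicate block, gave JUP 0.59, DSC2 -0.996, DSC3 -0.17 and PERP -0.39. Relative to GAPDH, PKP3 turned to -0.021 with normexp, -0.83 with quantile normalization and -0.22 with ACTB as the reference, and quantile normalization gave DSP -0.064 and PKP1 -0.67. The causes were not tested.

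The plaque minus cadherin median was -0.954 with normexp, -1.84 over the 8 members detected on all arrays and -0.813 with GC content removed. The members past 2.5-fold above GAPDH numbered 4 with GC content removed (beside 58.6% of all genes), 5 with quantile normalization (33.4%), 6 with normexp (54.1%) and 0 with the median of all genes as the reference (12.7%).

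With 1 array left out, where the lone array was assumed to vary like the others, the plaque minus cadherin median ran from -2.68 (without total RNA array 1) to -0.93 (without total RNA array 2), and the members' median minus that of all genes from 0.76 to -0.23 with the same arrays left out. The members past 2.5-fold above GAPDH numbered 3 without total RNA array 2, beside 42.3% of all genes. They numbered 8 without TIA1 RIP array 1, beside 70.1%, and 8 without total RNA array 1, beside 77.5%. Genes called ran from 0 to 1849 higher and from 0 to 2050 lower, genes past the fold and the adjusted threshold relative to GAPDH from 0 to 9532, and other junction genes called from 0 to 4. Each of these highest counts came without total RNA array 1, and there limma called PKP1 (-2.84, adjusted p = 0.0295), PKP3 (-2.81, adjusted p = 0.0407) and DSC3 (2.16, adjusted p = 0.0381), beside 29.9% of all genes. DSC3 and PKP2 were not above background on total RNA array 2, so their values in this fit and in the one relative to GAPDH rest on undetected levels. The same fit relative to GAPDH called 8 members, all but PKP1 and PKP3, beside 73.1% of all genes past the fold and the threshold. Log2 ratios that changed sign ran from -1.41 to 0.88 for JUP, -2.84 to 0.00067 for PKP1, -0.97 to 2.51 for PKP2, -0.35 to 1.82 for DSG3, -0.32 to 0.36 for DSC2 and -0.50 to 2.16 for DSC3. Relative to GAPDH they ran from -0.22 to 2.75 for DSP and -0.67 to 0.70 for PKP3.

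Arrays with the same replicate number share only the number, since no source states a shared culture. Their deviations from the group means correlated at r = 0.453 over all genes. With the replicate block limma called 57 genes higher (0.437%) and 299 lower (2.29%), and 0 members. With the block and GC content removed, 6037 genes (51.5%) passed the fold and the adjusted threshold relative to GAPDH, and 3 of 10 members passed the threshold, JUP (2.05, adjusted p = 0.0166), PKP2 (1.92, adjusted p = 0.0330) and DSG2 (1.51, adjusted p = 0.0451).

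Slide and scan could not be fitted as blocks, since all arrays shared both, and features of the transcript matched to each probe were not run. The canonical transcript of Ensembl, added after the data were seen, differed from the longest coding one for 2 members, with GC content of 56.3% for PKP1 and 46.1% for PKP2. The precision is limited by 2 arrays per group and by the low signal over background of total RNA array 2, where PKP2 and DSC3 have only a bound.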
